A study of Mus musculus with 8 samples.

Results

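Resting peritoneal macrophages of LysMCre-fur(fl/fl) mice (KO) were compared with those of WT littermates on 2 of the 8 two-colour arrays of the series, chosen because both of their channels were labelled as untreated. Each array carried 1 KO and 1 WT sample on a C57BL/6 background, with KO in Cy5 and WT in Cy3 on replicate 1 and the dyes exchanged on replicate 2, so replicate and dye orientation cannot be told apart. In KO mice the Cre recombinase is expressed from the lysozyme M (Lyz2) promoter, which is active in macrophages, neutrophils and other myeloid cells, and removes a floxed part of Furin. The cells were washed out of the peritoneal cavity, kept in culture, freed of nonadherent cells and given no stimulus, while the other 6 arrays held the same genotypes after 1, 4 or 24 h of lipopolysaccharide (LPS), a bacterial cell wall component that activates Toll-like receptor 4. The sources used here do not say how many animals contributed to a sample, their age, or whether WT littermates carried Cre. The samples are called biological replicates in their labels. With n = 2 untreated arrays, the p-values, unless stated otherwise, use a spread estimated from all 8 arrays, LPS arrays included. They rest on few samples and do not measure the spread between the 2 untreated arrays alone.

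FURIN is a membrane-bound endoprotease of the secretory pathway that cleaves pro-proteins after paired basic residues and thereby activates growth factors, receptors, adhesion molecules and metalloproteases. Pro-TGF-beta1, the precursor of a cytokine that restrains macrophage activation, is among its best known substrates. Resting peritoneal macrophages normally hold their chemokine, cytokine and interferon-stimulated genes at a low level and induce them through NF-kB, MAP kinases and interferon signalling when a microbial product is sensed.

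Values are log2 intensities per channel, and a ratio is the log2 KO/WT difference within an array. All 13 measured macrophage identity markers, among them Adgre1, Csf1r and Itgam (CD11b), were detected, meaning well above the local background, in all 4 channels. Adgre1 read 16.02 and 16.15 in KO and 16.11 and 15.91 in WT. Transcripts that mark other peritoneal cells were detected as well. The 13 measured B cell markers were all detected, with a median ratio of 0.20, and 6 of them were higher in KO on both arrays and none lower, against 23.7% higher and 24% lower among all genes tested. Of 16 T and NK cell markers, 8 were higher on both arrays and none lower, and Ms4a1 and Cd2, which mark B and T cells, had mean ratios of 0.33 and 0.23. The summed log2 intensity of the B cell markers was 16.7 and 17.2 in KO and 16.5 and 16.9 in WT. Mast cell markers split by array, with a median ratio of -0.07 on replicate 1 and 0.76 on replicate 2. Of 12 neutrophil markers 6 were detected, none was higher on both arrays and 6 were lower, among them Csf3r (-0.33 and -0.40), Mmp9 (-0.38 and -0.26) and S100a8 (-0.12 and -0.46). Ngp, S100a9, Ltf and Retnlg were not well above background in any channel. The Y-linked genes Ddx3y, Uty, Eif2s3y and Kdm5d were not well above background either, while Xist was in every channel. What part these lymphoid, mast cell and neutrophil transcripts had in the differences below was not tested, and in bulk RNA fewer cells of a type cannot be told apart from less RNA per cell.

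Some transcripts of steroid-producing and stromal cells were higher in both Cy3 channels, WT of replicate 1 and KO of replicate 2, than in both Cy5 channels. The examples below were chosen after their values were seen, and other markers did not share the pattern, such as the collagen Col3a1 (0.49 and 0.46) and the steroid enzyme Cyp17a1 (0.33 and 0.02). Mgarp, a mitochondrial protein of steroid-producing cells, read 11.21 in WT of replicate 1 and 6.25 in WT of replicate 2, against 6.17 and 8.31 in KO. Its readings of 6.17 and 6.25 were close to the WT level of Ch25h (6.25), a gene not well above background in WT. The size of the Mgarp ratios is therefore uncertain. Sparc, a matrix protein of stromal cells, read 13.84 and 10.16 in WT and 10.64 and 12.17 in KO, and Cyp11a1, the first enzyme of steroid synthesis, read 10.75 and 7.83 in WT and 8.70 and 9.11 in KO. Mgarp, Sparc and Cyp11a1 therefore had ratios of opposite sign on the arrays, a difference between samples and one between dyes cannot be told apart here, and results are given below for genes with 1 sign on both.

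The targeted gene, Furin, read 10.95 and 10.65 in KO and 11.56 and 11.48 in WT. Both KO channels lay below both WT channels. The ratios of -0.61 and -0.84 averaged -0.72 with a standard error (SE) of 0.11, a change in level of -39.5%, with a limma adjusted p of 0.155 in the fit of all 8 arrays and 0.0105 when the replicate number was a block. Whether its probe lies inside the deleted part was not determined, so the size of the difference does not measure how complete the deletion was. Lyz2, the lysozyme gene from which Cre is expressed, read 17.10 and 16.96 in KO and 18.17 and 17.71 in WT, a mean ratio of -0.90 (SE 0.11). Of the 9 proprotein convertases Furin was the only one past the threshold with the block, 3 were lower on both arrays and none was higher, and Pcsk7 and Mbtps1 had mean ratios of 0.01 and -0.01. Tgfb1 had ratios of 0.16 and -0.16, so no direction was seen for it.

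Across 36934 genes and transcripts the question was which differ between resting KO and WT cells. Ccl7, Ccl2, Serpinb2, Hcar2, Ccnd1 and Il1b were among the genes furthest above 0 on both arrays, and Tbc1d2, Lyz2, Hhipl1 and Mfsd7a were among those furthest below it. No gene passed an adjusted p of 0.05 in the limma fit of 8 arrays (0% called, smallest adjusted p 0.051, 2136 at an unadjusted p under 0.05). With the replicate number as a block, 399 passed, of which 170 were higher on both untreated arrays (0.46% of those tested) and 203 were lower on both (0.55%). A limma fit of the 2 untreated arrays alone called 12, all of them higher in KO, namely Ccl7, Ccl2, Serpinb2, Hcar2, Ccnd1, Il1b, Phlda1, Klra2, Ifi211, Il6, Noct and the transcript ENSMUST00000131108. The word called refers below to the fit with the block. Adjusted p-values of single genes below are from that fit too, unless stated otherwise. Every SE is from the fit without the block, in which none of these genes passed. The SE and adjusted p printed for a gene are therefore not from the same fit. These calls depended on the processing: without untreated replicate 1 none remained, without untreated replicate 2 there were 30, of which 25 were higher and 5 lower against 175 and 224 of the 399, and with the signals as background-corrected by the scanner software there were 0.

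**Figure D1:**
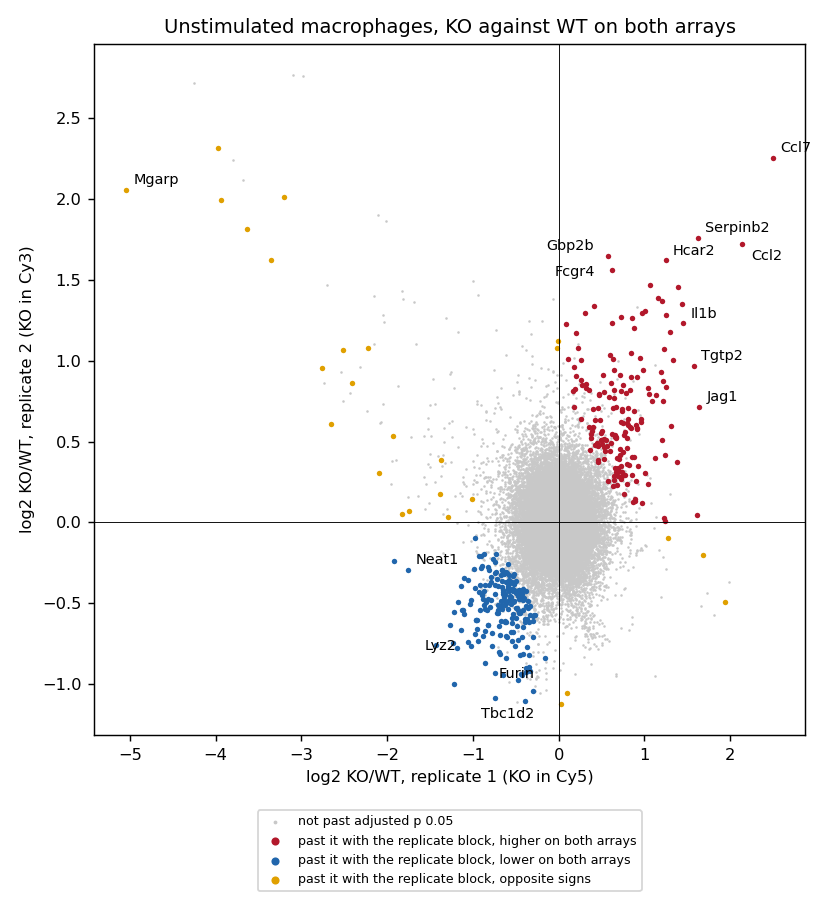
Log2 KO/WT of every gene and transcript on replicate 1 (horizontal axis) against replicate 2 (vertical axis) in unstimulated macrophages, with genes past adjusted p 0.05 in the limma fit with the replicate block in colour. Ccl7 lies furthest to the upper right at 2.50 and 2.25, and Mgarp to the upper left at -5.04 and 2.06. The lower Mgarp channel of each array was near the level of undetected genes, so the size of its ratios is uncertain.

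The higher genes were further from 0 than the lower ones. Among all genes tested, 27 were more than 2-fold higher on average and 6 more than 2-fold lower, 15 and 1 of them on both arrays, while the median ratio of all genes was -7e-04 and their 5th and 95th percentiles were -0.24 and 0.22. The shares of 23.7% and 24% given above are the background for every count of genes higher or lower on both arrays. They are taken over all 36934 genes and transcripts, of which 19747 were detected in a genotype on both arrays. The lists hold mostly named and detected genes, for which no such share was taken, and housekeeping genes had 6 of 18 in each direction. Of all named genes 1.16% were called with 1 sign on both arrays.

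Monocyte-attracting chemokines had the largest differences. Ccl7, a ligand of CCR2 that recruits monocytes, read 10.71 and 10.01 in KO and 8.21 and 7.76 in WT, a mean ratio of 2.38 (SE 0.56) or 5.19-fold. Ccl2, the main CCR2 ligand, read 12.93 and 12.15 in KO and 10.79 and 10.43 in WT, a mean ratio of 1.93 (SE 0.20) or 3.81-fold. Neither gene overlapped between the genotypes, and both were called (limma adjusted p of 0.0117 and 0.00129). Ccl4, another chemokine of this family, had a mean ratio of 1.04 and was called, and Ccl3 (0.81) and Ccl5 (1.30 and 0.18 on the arrays) were not. Of the 15 CC chemokines 8 were higher on both arrays and 2 lower. The neutrophil-attracting Cxcl1, Cxcl2 and Cxcl3 and the interferon-inducible Cxcl10 were higher on both arrays as well, with mean ratios of 0.72, 1.04, 0.64 and 0.81, and none of these 4 was called. Of 12 CXC chemokines 6 were higher on both arrays and 1 lower, with a median ratio of 0.20 and 1 other member called.

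Among cytokines, the interleukin 1 and 6 genes stood out. Il1b read 11.66 and 10.93 in KO and 10.21 and 9.69 in WT, a mean ratio of 1.34 (SE 0.22) or 2.54-fold with a limma adjusted p of 0.0140. Il6 read 9.20 and 8.51 in KO and 7.90 and 7.34 in WT, a mean ratio of 1.24 (SE 0.25) or 2.36-fold with an adjusted p of 0.0292. KO lay above WT on each array and in every channel pair for both genes. Il1rn, which encodes the receptor antagonist that blocks interleukin 1, was called at a mean ratio of 0.65 but rested mainly on replicate 2 (0.23 and 1.08). Csf2, Il1a, Osm, Csf1 and Tnf were higher on both arrays without being called, with Tnf at 0.16 and 0.50, and 11 of 19 cytokine genes were higher on both and none lower. Ifnb1, the gene of interferon beta, was not well above background in any channel.

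The 6 promoters below, of the cytokine gene Il6 and of 5 called interferon-response genes, are shown because they hold letters of elements known from inducible genes, and were picked for that. Each is the 250 bases before the RefSeq transcription start on GRCm38.p6, written 5′ to 3′ on the gene's own strand, with capitals for the AP-1 letters TGACTCA, the NF-kB letters GGGANTTTC and the core letters GAAANNGAA of the interferon-stimulated response element (ISRE) on either strand. They lie at chr5:30012864-30013113 (+ strand) for Il6, chr1:173913047-173913296 (- strand) for Ifi211, chr11:49064213-49064462 (- strand) for Tgtp2, chr3:142594597-142594846 (+ strand) for Gbp2b, chr19:34583279-34583528 (+ strand) for Ifit3 and chr5:120907526-120907775 (- strand) for Oas1a.
Il6: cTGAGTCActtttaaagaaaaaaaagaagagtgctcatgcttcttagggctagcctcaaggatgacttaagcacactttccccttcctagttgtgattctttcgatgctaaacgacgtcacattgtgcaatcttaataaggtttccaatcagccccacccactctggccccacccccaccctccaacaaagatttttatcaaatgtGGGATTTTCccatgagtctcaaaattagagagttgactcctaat
Ifi211: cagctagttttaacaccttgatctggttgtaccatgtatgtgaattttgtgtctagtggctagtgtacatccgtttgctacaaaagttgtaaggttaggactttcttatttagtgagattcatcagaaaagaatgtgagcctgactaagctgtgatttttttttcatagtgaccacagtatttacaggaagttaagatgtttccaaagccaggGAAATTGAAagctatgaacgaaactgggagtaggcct
Tgtp2: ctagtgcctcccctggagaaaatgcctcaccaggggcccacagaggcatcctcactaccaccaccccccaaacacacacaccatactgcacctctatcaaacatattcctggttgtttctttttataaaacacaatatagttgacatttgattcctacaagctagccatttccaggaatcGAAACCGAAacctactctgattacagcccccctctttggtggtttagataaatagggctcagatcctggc
Gbp2b: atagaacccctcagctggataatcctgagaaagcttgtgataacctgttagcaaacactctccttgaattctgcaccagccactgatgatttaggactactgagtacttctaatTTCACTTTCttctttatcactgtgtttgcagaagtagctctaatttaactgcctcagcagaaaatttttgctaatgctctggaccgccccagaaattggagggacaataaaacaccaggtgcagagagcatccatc
Ifit3: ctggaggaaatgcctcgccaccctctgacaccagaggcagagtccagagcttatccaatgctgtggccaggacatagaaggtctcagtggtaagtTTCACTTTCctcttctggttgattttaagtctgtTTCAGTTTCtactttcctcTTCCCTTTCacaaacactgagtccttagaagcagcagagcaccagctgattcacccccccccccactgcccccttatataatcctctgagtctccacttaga
Oas1a: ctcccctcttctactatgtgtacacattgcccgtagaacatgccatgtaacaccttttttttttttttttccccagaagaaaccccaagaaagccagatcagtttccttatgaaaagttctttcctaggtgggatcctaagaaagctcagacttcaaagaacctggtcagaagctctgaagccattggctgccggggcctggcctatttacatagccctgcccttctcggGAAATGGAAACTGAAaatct

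Il6 held AP-1 letters starting 249 bases and NF-kB letters starting 44 bases before the start. The ISRE core began 37 bases before the start in Ifi211, 70 in Tgtp2 and 136 in Gbp2b, occurred 3 times in Ifit3 and occurred in a pair of overlapping copies in Oas1a. RefSeq promoters were matched for 103 of the 142 named genes called higher on both arrays and for 81 of the 100 called lower. Over the window of 250 bases before to 50 after the start, the ISRE core was found in 23 of 136 promoters of the higher genes (16.9%), in 7 of 98 of the lower genes (7.14%) and in 7.96% of the 20148 promoters of all measured genes. Besides interferon-response genes, the 23 included those of C5ar1, Fcgr4, Chil3, Jag1 and Noct. AP-1 letters were found in 5.88% of the promoters of higher genes, 5.1% of those of lower genes and 4.68% of all. The NF-kB letters were found in 2.21, 2.04 and 1.09%, from 3 promoters of higher and 2 of lower genes, and the cyclic AMP response element TGACGTCA in 3.68, 0 and 2.33%. The TATA box letters TATAAA were found in 14.7, 9.18 and 11.9%, the ETS core CCGGAAGT in 4.41, 4.08 and 5.4%, the EGR letters GCGTGGGCG in 1.47, 1.02 and 0.878%, and the ATF4 composite letters TGATGNAAT in 0.735, 0 and 0.784%. A match of letters is a description of the sequence and not evidence of binding.

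Most interferon-stimulated genes had higher levels in KO cells on each array. Of 28 measured type I interferon-stimulated genes 23 were higher on both arrays and none lower, 6 were called, and the median ratio was 0.28 against -7e-04 over all genes. Rtp4, a chaperone of G-protein-coupled receptors, read 12.15 and 12.19 in KO and 11.18 and 10.89 in WT, a mean ratio of 1.13 (SE 0.19) with a limma adjusted p of 0.00129. The oligoadenylate synthetase family members Oasl2, Oasl1 and Oas1a had mean ratios of 0.72, 0.68 and 0.45, and Ifit3, an RNA-binding antiviral protein, 0.71. All 4 were called. Irf7, the transcription factor that amplifies interferon production, was called at 0.63 but was further from 0 on replicate 2 (0.26 and 1.00). Isg15, Rsad2 and Ifit1 were higher on both arrays and not called.

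The guanylate-binding proteins and immunity-related GTPases, which attack the vacuoles of intracellular microbes, had the larger median ratio of 0.42, with 14 of 18 higher on both arrays, none lower and 6 called. Tgtp2 read 10.79 and 11.08 in KO and 9.21 and 10.11 in WT, a mean ratio of 1.27 (SE 0.22). KO was higher on each array, and the lowest KO channel was above the highest WT channel. Gbp2b had ratios of 0.58 and 1.65, Gm4841 0.95 and 1.02, Ifi47 0.64 and 0.82, Gbp3 0.53 and 0.80, and Gbp9 0.16 and 0.82, and all were called. These genes are close paralogs, so cross-hybridisation among them cannot be told apart from separate changes. Ifi211, of the Ifi200 family of nucleic acid sensors and regulators, read 11.72 and 11.52 in KO and 10.47 and 10.24 in WT, a mean ratio of 1.27 (SE 0.21), and its ratios of 1.26 and 1.28 were nearly equal. Ifi204 was called at ratios of 0.17 and 0.96, and 6 of 9 family members were higher on both arrays.

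Feedback inhibitors and targets of the ERK MAP kinase pathway were higher on both arrays in 15 of 19 cases, with 1 lower, 5 called and a median ratio of 0.26. Phlda1 read 9.94 and 9.80 in KO and 8.74 and 8.43 in WT, a mean ratio of 1.29 (SE 0.21). Dusp6, the phosphatase that switches off ERK, read 11.20 and 10.96 in KO and 9.96 and 10.12 in WT, a mean ratio of 1.04 (SE 0.14). Both were called, as were Trib1 (1.04), a pseudokinase scaffold, Etv5 (0.92), an ETS factor, and Spred1 (0.79), an inhibitor of Ras signalling. Of 23 immediate early transcription factors 15 were higher on both arrays and none lower. Egr1 was called at a mean ratio of 0.93 (SE 0.13) with a limma adjusted p of 0.00676, Fosl1 at 0.69 and Myc at 0.45 (0.18 and 0.71 on the arrays), and Klf4 (0.50), Fos (0.45) and Fosb were higher on both arrays without a call.

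Of 17 genes of D cyclins, CDK inhibitors and Myc proteins 8 were higher on both arrays, 2 lower and 4 called. Ccnd1, which encodes cyclin D1, read 9.36 and 9.03 in KO and 7.92 and 7.68 in WT, a mean ratio of 1.40 (SE 0.15) or 2.63-fold with a limma adjusted p of 0.00135. The cell cycle inhibitors Cdkn2b (p15) and Cdkn1a (p21) were called at 0.67 and 0.66, but a second detected Cdkn1a probe had ratios of -0.15 and 0.15. Of 30 DNA replication and mitosis genes 16 were higher on both arrays and 4 lower, none was called, and their median ratio was 0.09, with Ccnb1 at 0.31, Pcna at 0.27 and Bub1b at -0.25.

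**Figure D2:**
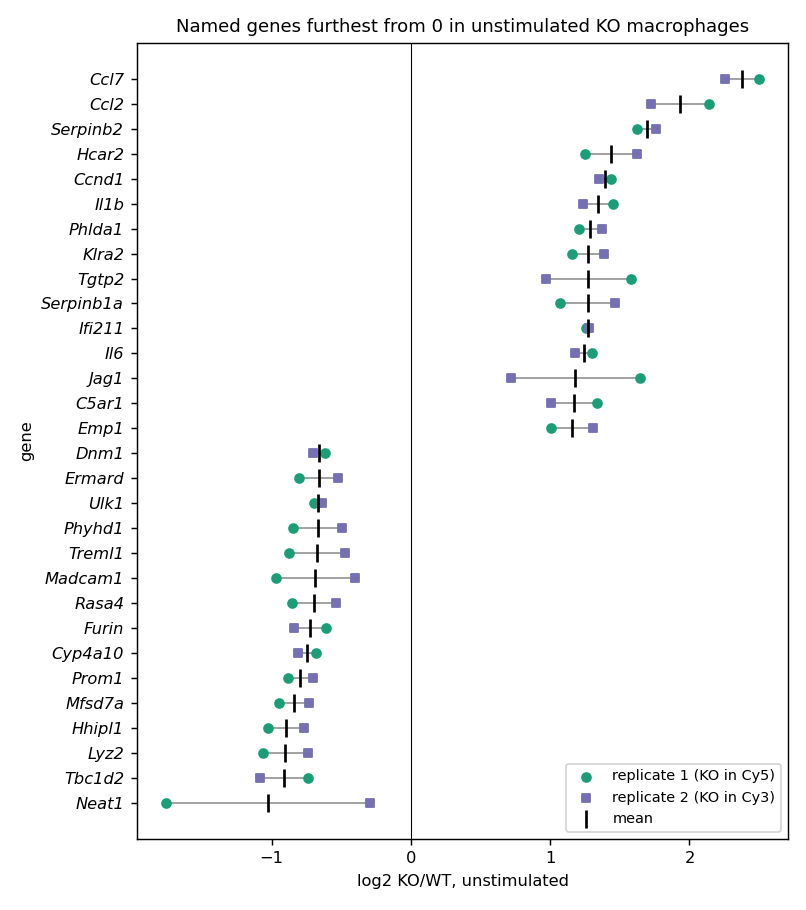
Log2 KO/WT on each untreated array (circles, replicate 1; squares, replicate 2) and their mean (bars) for the 15 named genes with the largest increase and the 15 with the largest decrease among those called with the replicate block and of 1 sign on both arrays. Ccl7 is highest with a mean of 2.38, and Neat1, whose arrays read -1.75 and -0.29, is lowest.

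Of 22 chemoattractant and metabolite receptors 9 were higher on both arrays, 3 lower, and 3 called higher. C5ar1, the receptor of the anaphylatoxin C5a, read 12.14 and 11.72 in KO and 10.80 and 10.72 in WT, a mean ratio of 1.17 (SE 0.12) with a limma adjusted p of 0.00129. Hcar2, the receptor of niacin and beta-hydroxybutyrate, read 10.94 and 10.95 in KO and 9.70 and 9.33 in WT, a mean ratio of 1.44 (SE 0.24), and a second detected probe of it had ratios of 0.36 and 0.94. On the probes used, neither C5ar1 nor Hcar2 overlapped between the genotypes. Of 6 Fc gamma receptors 2 were higher and 2 lower (median -0.01). The activating receptors Fcgr1 and Fcgr4, which bind IgG, were called at mean ratios of 1.00 and 1.09 and were larger on replicate 2 (0.72 and 1.27, and 0.63 and 1.56). The inhibitory Fcgr2b had a mean ratio of -0.04 and Fcgr3 of -0.17. Of 19 complement genes 7 were higher on both arrays and 2 lower, and C2 and C4b were called at 0.87 and 0.56, again mostly from replicate 2. Fpr2, a receptor of formylated bacterial peptides, was called in the other direction at -0.51.

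Serpinb2, the plasminogen activator inhibitor PAI-2 and a gene characteristic of large peritoneal macrophages, read 15.92 and 15.82 in KO and 14.30 and 14.06 in WT, a mean ratio of 1.69 (SE 0.16) or 3.23-fold. Serpinb1a, an inhibitor of neutrophil proteases, read 13.66 and 13.71 in KO and 12.59 and 12.24 in WT, a mean ratio of 1.27 (SE 0.21). Both genes separated the genotypes without overlap and were called. They were the 2 of 12 measured genes of the serpin list that were higher on both arrays, with 1 lower and a list median of -0.03, and Serpinb1c, which is not on the list, was called at 0.82. Other genes of the large peritoneal macrophage did not share 1 direction: Apoc1 was called at 0.94 and Nt5e at 0.80 (0.31 and 1.30 on the arrays), Gata6, the transcription factor that defines this cell, had ratios of -0.32 and 0.54, and the phosphatidylserine receptor Timd4 had a mean ratio of -0.50 without a call. Of 25 such genes 12 were higher on both arrays and 4 lower.

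Emp1, a membrane protein, and Jag1, a Notch ligand, were called at mean ratios of 1.15 and 1.18, with Jag1 further from 0 on replicate 1 (1.64 and 0.72). Ptgs2, the inducible cyclooxygenase, had ratios of 0.91 and 1.33 and missed the threshold (limma adjusted p of 0.0539). Genes linked with alternative activation were higher on both arrays in 12 of 23 cases and lower in 2, with a median ratio of 0.22. Tgm2, a transglutaminase, was called at 0.71 and the chitinase-like Chil3 at 0.57 (0.31 and 0.83 on the arrays), while Arg1 had ratios of -0.38 and 0.46 and Retnla a mean of -0.43. Ch25h, which makes the oxysterol 25-hydroxycholesterol, was not well above background in WT, and the level in KO was at least 1.69-fold higher, without a call. Of 20 classical activation genes 7 were higher on both arrays and 5 lower (median 0.05), with 1 called in each direction, and Nos2 had ratios of 0.22 and -0.07.

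Genes of serine synthesis and of the amino acid response driven by ATF4 were higher on both arrays in 16 of 26 cases, lower in 1, and 6 were called. Psat1, an enzyme of serine synthesis, read 11.31 and 11.24 in KO and 10.53 and 10.44 in WT, a mean ratio of 0.79 (SE 0.11) with a limma adjusted p of 0.00457. Asns, asparagine synthetase, read 12.93 and 12.96 in KO and 12.21 and 12.05 in WT, a mean ratio of 0.81 (SE 0.13). The 2 genotypes did not overlap for either. The transporters Slc7a5 (0.96) and Slc7a1 (0.66), Chac1 (0.80), which degrades glutathione, and Trib3 (0.64) were also called, although a second detected Slc7a5 probe had a mean ratio of 0.15. Slc7a1 (1.01 and 0.31) and Trib3 (0.92 and 0.35) were further from 0 on replicate 1. Atf4 itself had ratios of 0.39 and -0.21. The unfolded protein response, a separate arm of the same stress system, had no called gene among 17, 7 higher on both arrays and 1 lower. Its median ratio was 0.11, from 0.19 on replicate 1 and 0.03 on replicate 2.

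Of the 203 genes and transcripts called lower 103 had no gene name, against 28 of the 170 called higher, so many of them could belong to no list. Neat1, the nuclear RNA that scaffolds paraspeckles, read 14.35 and 15.02 in KO and 16.10 and 15.31 in WT, and most of its mean ratio of -1.02 (SE 0.33) came from replicate 1. Malat1, another abundant nuclear RNA, was called at -0.48 with ratios of -0.64 and -0.32. Tbc1d2, a Rab7-directed GTPase activator, read 10.12 and 9.77 in KO and 10.86 and 10.85 in WT, a mean ratio of -0.91 (SE 0.11) with a limma adjusted p of 0.00321. Its KO and WT channels did not overlap.

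Ulk1, the kinase that starts autophagy, read 13.03 and 12.92 in KO and 13.72 and 13.56 in WT, a mean ratio of -0.67 (SE 0.13). Rasa4, a GTPase activator of Ras, read 12.34 and 12.50 in KO and 13.20 and 13.04 in WT, a mean ratio of -0.70 (SE 0.11). Both were called and showed no overlap. Hhipl1, Mfsd7a, Prom1, Cyp4a10, Madcam1, Treml1, Phyhd1, Ermard and Dnm1 completed the 15 largest decreases, between -0.90 and -0.66, with Madcam1 at -0.97 and -0.40 on the arrays and a second detected Dnm1 probe at -0.49 and 0.20. The metalloprotease Mmp14, itself activated by FURIN, was called at -0.63, and 9 of 30 FURIN substrates were higher on both arrays and 7 lower. Smad6, an inhibitory Smad, was the called gene of the TGF-beta pathway at -0.45, and 6 of 23 pathway genes were higher on both arrays and 2 lower. The scavenger receptor Stab1 was called at -0.56, mostly from replicate 1 (-0.91 and -0.21), and Msr1 at 0.60, with ratios of -0.05 and 0.70 on a second detected probe.

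Glycolysis genes were lower on both arrays in 10 of 20 cases and higher in 2, with a median ratio of -0.11, and Pfkl, the liver-type phosphofructokinase, had a mean ratio of -0.42. The largest ratio of the list was that of the glucose transporter Slc2a1, which was higher at 1.13 and 0.04. Respiratory chain subunits were lower in 11 of 25 and higher in 1 (median -0.05), lysosomal cathepsins and hydrolases lower in 9 of 20 and higher in 1, and antioxidant genes of the NRF2 programme lower in 8 of 20 and higher in 1 (median -0.11, but 0.04 on replicate 1 and -0.20 on replicate 2). In these 4 lists Ctsk, the collagen-degrading cathepsin K, was the called gene at -0.50, and Gsta3, Gclm and Sod2 had mean ratios of -0.80, -0.42 and -0.40 without a call. Mvd, of cholesterol synthesis, was called at -0.61 while 6 of 25 lipid synthesis genes were higher on both arrays and 7 lower.

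The lists of Toll-like receptor and NF-kB genes lay near the background shares. Of 40 Toll-like receptor pathway genes 8 were higher on both arrays and 10 lower, and 4 of 17 NF-kB subunits and inhibitors were higher and 4 lower. Tlr4 had ratios of 0.28 and 0.74, Myd88 0.07 and 0.09, and Nfkb1 -0.30 and 0.58. Irf7 and Ikbke, a kinase upstream of it, were called in this group at 0.63 and -0.50, the latter from -0.67 and -0.33. Of 17 inflammasome genes more, 9, were lower on both arrays, among them the sensors Naip1 (-0.43) and Naip5 (-0.31), and 4 were higher, with Il1b the called one. Of 20 negative regulators of inflammation 11 were higher and none lower, and Il1rn was the called one. Housekeeping genes had 6 of 18 higher, 6 lower and a median ratio of 0.03.

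**Figure D3:**
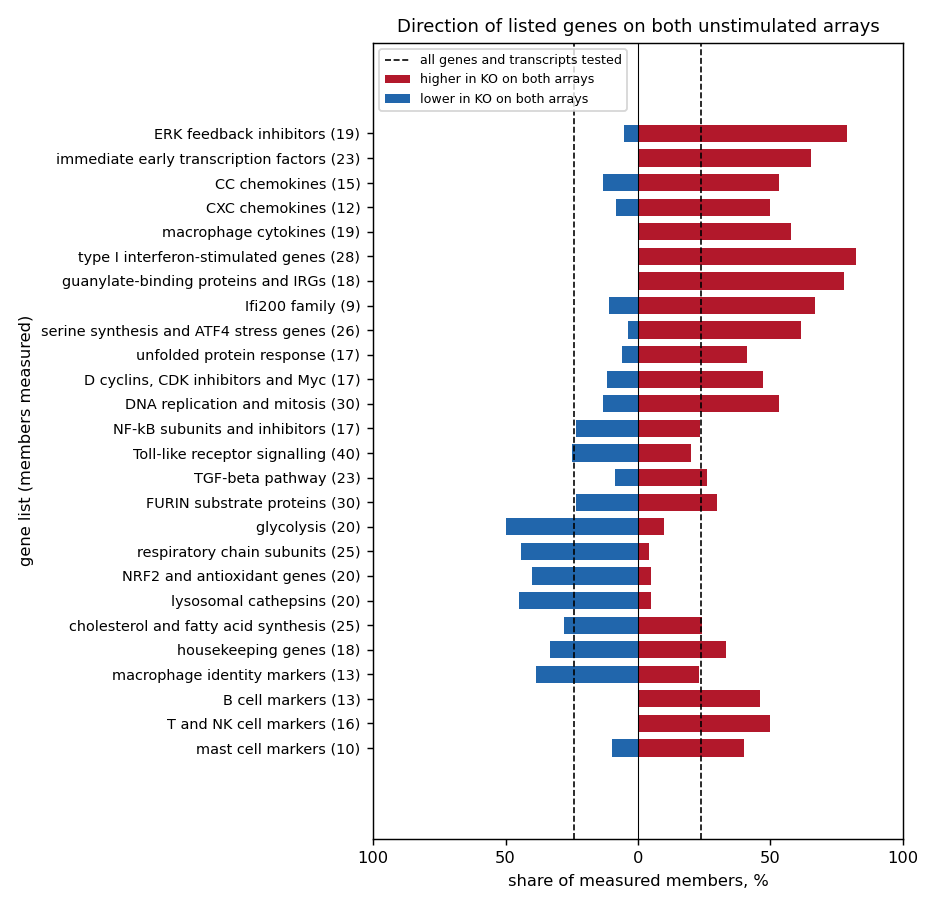
Share of the measured members of 26 gene lists that were higher (red, to the right) or lower (blue, to the left) in KO on both untreated arrays, in percent, with the shares over all genes tested as dashed lines at 23.7% and 24%. Interferon, GTPase and ERK feedback lists reach furthest to the right, with 23 of 28, 14 of 18 and 15 of 19 members higher, and of the lists drawn glycolysis furthest to the left with 10 of 20 lower. The inflammasome list, with 9 of 17 lower, is not drawn. Also not drawn are the autophagy list, with 19 of 29 lower, and the ribosome biogenesis list, with 23 of 28 higher, both written after the values were seen.

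The same KO/WT comparison after LPS gives the ratios of the same genes once both genotypes were stimulated. These arrays are separate hybridisations, but whether their cells came from the same animals is not stated. Of the 170 genes called higher, 75.3% were higher in KO on both arrays at 1 h, 58.8% at 4 h and 45.3% at 24 h, against 24.1, 21.9 and 23.4% of all genes at these times. The genes were selected on their resting ratios, so their resting medians are raised by the selection. Lower values at other times follow in part from it, and the medians are given as a description. The fit that called them also took its spread from the LPS arrays, which favours genes whose replicate difference varied little between times. The shares after LPS, for higher and lower genes, are therefore not independent of the calls. The median ratio of the higher genes was 0.64 at rest and 0.38, 0.18 and 0.16 after 1, 4 and 24 h. Of the 203 genes called lower, 76.8, 66 and 36% were lower on both arrays, against 24.5, 22.6 and 21.6% of all genes. Their medians were -0.56 at rest and -0.29, -0.20 and -0.04 afterwards. At 24 h, 22 of the 170 and 41 of the 203 had the opposite sign on both arrays.

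Ccl2, with ratios of 2.14 and 1.72 at rest, read 0.35 and 0.89 after 1 h of LPS, 0.46 and 0.47 after 4 h, and -0.54 and 0.28 after 24 h. Serpinb2, at 1.63 and 1.76 at rest, had -0.02 and 0.49 at 1 h and 0.25 and -0.28 at 24 h. After 24 h the arrays disagreed in sign for both genes. Ccnd1 had ratios of 0.90 on both arrays after 1 h of LPS, 0.39 and 0.45 after 4 h, and -0.06 and 0.68 after 24 h. Tgtp2 had 0.71 and 1.56 after 1 h, -0.02 and 0.27 after 4 h and 0.67 and 1.10 after 24 h. Jag1 was the other way round at 24 h, at -0.86 and -0.74. Furin itself had ratios of -0.56 and -0.53 after 1 h, 0.00 and 0.33 after 4 h and -0.58 and -0.68 after 24 h. A limma test of the ratio after LPS minus the ratio at rest called no gene at any time without the block, and with it 0 genes at 1 h, 16 at 4 h and 78 at 24 h.

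**Figure D4:**
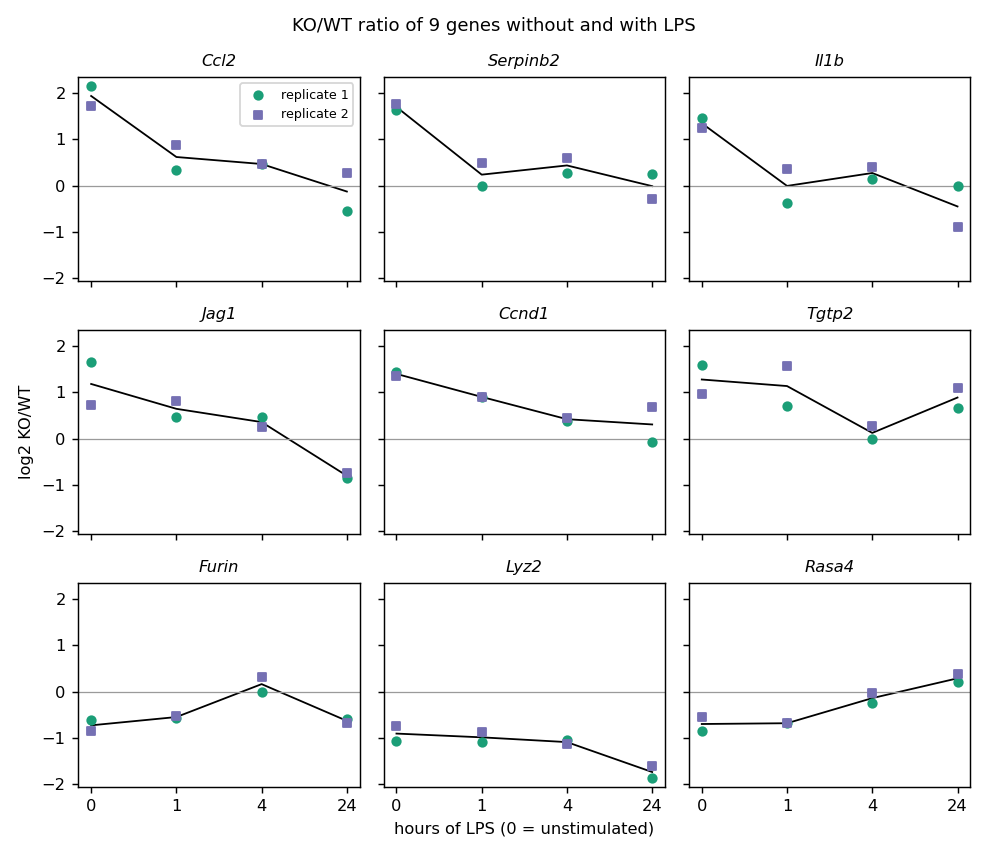
Log2 KO/WT of 9 genes without LPS (0 h) and after 1, 4 and 24 h, with both replicates as points and their mean as a line. Ccl2 runs from a mean of 1.93 at rest to -0.13 at 24 h and Rasa4 from -0.70 to 0.29, while Lyz2 stays below 0 throughout.

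Genes that LPS induced strongly in WT cells were more often higher than lower in resting KO cells. To keep the measurements apart, each gene's response to LPS was taken from the WT channels of 1 replicate and its resting KO/WT ratio from the other. Genes induced more than 8-fold in WT at 4 h had a median resting ratio of 0.24 (322 genes, ratio from replicate 2) and 0.21 (276 genes, ratio from replicate 1), and 82.6 and 75.4% of them were higher in KO. Genes that changed by less than 2-fold had medians of -0.00154 and 0.00196, with 49.6 and 50.4% higher. Those induced more than 8-fold at 1 h had medians of 0.25 and 0.34, with 81.9 and 92.2% higher in KO, and those more than 8-fold lower at 4 h had medians of -0.10 and -0.27. At 24 h the genes induced more than 8-fold had medians of 0.14 and 0.25, with 65.6 and 81.6% higher, and those more than 8-fold lower had medians of -0.02 and -0.23, with 47.1 and 21.6% higher. Of the genes induced more than 8-fold at 1 h, a minority of 29.5 and 36.7% exceeded a resting ratio of 0.5. The shares were 1.11 and 1.56% among genes that changed by less than 2-fold at 1 h. These are descriptions over genes, which are not independent replicates.

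**Figure D5:**
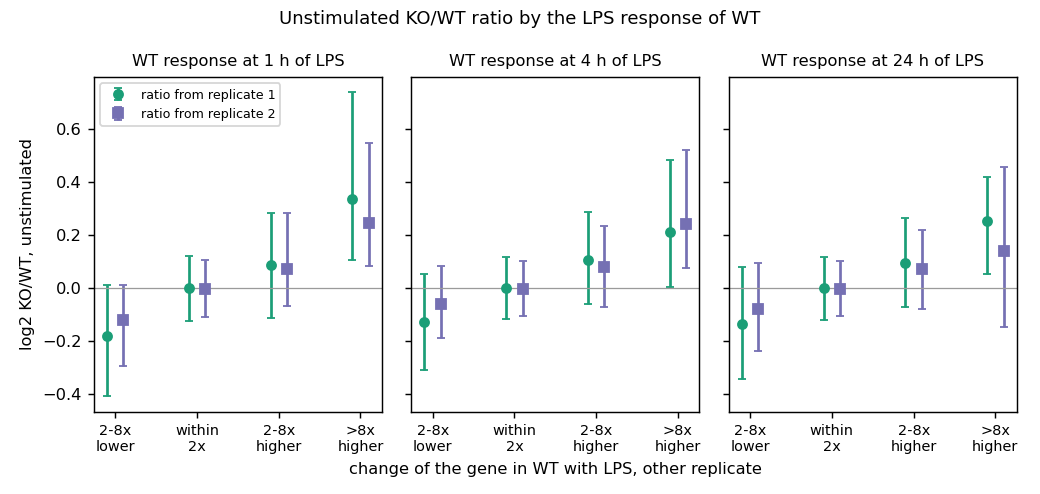
Median resting log2 KO/WT, with quartiles as bars, of genes grouped by how they changed in WT cells with LPS at 1, 4 and 24 h, where the response and the ratio come from different replicates. The median runs from -0.18 and -0.12 for genes 2- to 8-fold lower in WT at 1 h to 0.34 and 0.25 for genes more than 8-fold higher.

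Where a called gene had further probes on the array, these were compared with the brightest one used above. Of 78 further detected probes of 64 genes, 59 had the same direction as the main probe on both arrays and 11 had a mean of the opposite sign. The ratio of the further probes was a median 0.58 of that of the main probe.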

How the data were processed

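RNA of 2 untreated KO and 2 untreated WT samples was hybridised in pairs to a mouse two-colour 60-mer array, with 6 further arrays after LPS. Per the file headers, the deposited scanner files hold spot intensity values from Agilent Feature Extraction 10.7.3 (version from the submitters' processing notes). The authors also deposited a matrix of log2 ratio values after loess and quantile normalization with limma, which was set against the scanner files (Pearson r of 0.676 to 0.747 over probes) and used as an alternative.

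Median spot intensity was background-corrected with normexp (offset 50), normalized by loess within arrays and by quantile between arrays in limma 3.58.1 (R 4.3.3). The files hold median signals, so a planned use of mean signals was not possible. Control spots and outliers were left out. Probes were named through RefSeq (27509 of 55681, 20887 genes), and the brightest probe stood for a gene. Genes with a mean log2 intensity under 6 were dropped, which left 36934 genes and transcripts, 20838 of them named. In the untreated arrays 46.8 to 51.3% of spots were well above background per channel, and the small number of arrays limits the precision. All 8 arrays lay on 1 slide and shared 1 scan time.

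The log2 ratios of the 8 arrays went into lmFit and eBayes, with 1 coefficient per time, without and with the replicate number as a block, with Benjamini-Hochberg adjustment over all genes tested. The replicate numbers recur at every time: the difference between replicate 1 and 2 correlated between times at r of 0.476 to 0.680 over genes, so they were taken as paired. The number is also the dye orientation at every time, and gene-specific dye bias would give such a correlation too. The script was tested on simulated data. The members and gene lists were chosen with earlier results of these data known. Named genes were Furin, Lyz2, Tgfb1 and genes the paper names for resting cells (Atf7 had no named probe), the 15 largest increases and decreases among called genes, and up to 4 members of each list with the largest ratio of 1 sign. Further members are named beside them, chosen after their values were seen. Motifs were searched in RefSeq promoters of GRCm38.p6. Array annotation used another build, so no array coordinates are given. Alternatives were other normalizations, filters and probe rules, each array left out, the 2 untreated arrays alone and the methods' t-test.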

Additional observations from a re-analysis of the deposited data

Results flagged for a closer look

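Among the 35 genes that the study names or that had the largest increases and decreases, 14 are given here because the KO/WT ratio after LPS differed from that at rest, either by a limma test with the replicate block or because both arrays lay on opposite sides of 0 before and after LPS. Other genes described above passed the same test with the block, Ccl4 and Rtp4 at 4 and 24 h, and Nt5e, Fosl1, Gm4841, Msr1, Tgm2 and Trib1 at 24 h. The test without the block called none of the 14 (adjusted p between 0.221 and 1), and no explanation was tested.

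The ratio after 24 h minus that at rest was -2.06 for Ccl2, -1.71 for Serpinb2, -1.54 for Hcar2, -1.79 for Il1b, -1.98 for Jag1, -1.21 for C5ar1, -1.09 for Ccnd1, -1.01 for Serpinb1a and -0.829 for Lyz2 (adjusted p with the block between 0.00853 and 0.047). For C5ar1 it was -1.07 at 4 h (adjusted p 0.0461). Lyz2 was further from 0 after LPS, from -1.06 and -0.74 at rest to -1.85 and -1.61, whereas Jag1 turned from higher to lower in KO on both arrays. Il1b turned as well, but with a ratio of only -0.00212 on replicate 1.

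At 24 h the same difference was 0.938 for Mfsd7a and 0.985 for Rasa4 (adjusted p with the block of 0.0197 and 0.0111), both lower in KO at rest. Afterwards Rasa4 read 0.20 and 0.37, and Mfsd7a 0.16 and 0.04, which is within the median gap of 0.169 between replicates. The difference was 0.679 for Phyhd1 and 0.783 for Ermard at 24 h, where their ratios were close to 0 (0.01 and 0.01 for Phyhd1, 0.07 and 0.17 for Ermard), and 0.888 for Furin at 4 h (from -0.61 and -0.84 to 0.00 and 0.33), but these differences did not pass the test (adjusted p of 0.0793, 0.0793 and 0.0946).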

How the results depend on the processing

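The number of genes past the threshold was 0 without the replicate block and 399 with it. The replicate numbers were taken as pairing the samples, but they also mark the dye orientation, and pairing and gene-specific dye bias cannot be told apart. With the block the count was 357 with loess alone or Aquantile, 358 with the authors' matrix, 367 without background subtraction, 399 without the intensity filter, 326 with a detection filter and 198 with the mean over a gene's probes, but 0 with software-processed signals. The 2 untreated arrays alone gave 12, the methods' t-test 0 after adjustment (1713 unadjusted). Leaving out 1 array in turn gave 0 to 3 without the block, the 3 coming without either 24 h array, and 0 to 651 with it: 0 without untreated replicate 1, 30 without untreated replicate 2, 366 without either 1 h array, 390 without either 4 h array and 651 without either 24 h array. For the resting comparison, leaving out either array of an LPS time must give the same count, because the remaining array is fitted exactly by its own coefficient. These are therefore 1 check per LPS time. Of the 357 and 358, 324 were among the 399.

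For the ratio after LPS minus that at rest, the block gave 0, 16 and 78 genes at 1, 4 and 24 h against 0 without it. Without the block, leaving out 1 array gave 0 to 8 at 1 h, the 8 without LPS 1 h replicate 1, and 0 at 4 and 24 h. Tgfb1 reversed to -0.00924 with loess alone or Aquantile, to -0.009698 with the authors' matrix and to -0.1592 without untreated replicate 1, against 0.1632 without untreated replicate 2. The alternatives were run for 35 genes, those named by the study and the largest increases and decreases, and the other 34 kept their direction in each. The size of the ratio moved more for some than for others. Over the alternatives it lay between 0.67 and 1.58 for Tgtp2, 0.91 and 1.83 for Ptgs2, -0.86 and -0.24 for Cyp4a10, and -1.14 and -0.42 for Hhipl1. For Serpinb2 it stayed between 1.63 and 1.76. List examples were not run singly. The 34 have 1 sign on both untreated arrays, for most by selection, so leaving out either of these could not turn them. Software-processed signals moved 14 of 55 list medians, and leaving out untreated replicate 1 or 2 moved 19 or 20. With 2 arrays, differences close to the median gap of 0.169 between replicates cannot be resolved.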

Other observations

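Ribosome biogenesis and autophagy genes, listed only after the values had been seen, lay on opposite sides. Of 28 ribosome biogenesis genes 23 were higher in KO on both untreated arrays and none lower, with a median ratio of 0.29, and 5 were called with the block. Nop58, a core protein of box C/D ribonucleoproteins, read 11.77 and 11.69 in KO and 10.98 and 11.08 in WT, a mean ratio of 0.71 (SE 0.12). Heatr1, Gar1, Nifk and Tsr1 were called at 0.64, 0.54, 0.53 and 0.53, the first of them mostly from replicate 1 (1.04 and 0.24), as were Gar1 (0.72 and 0.35) and Nifk (0.77 and 0.29). Of 29 genes of autophagy and the vacuolar ATPase 19 were lower on both arrays and 1 higher, with a median ratio of -0.18 (-0.31 on replicate 1 and -0.10 on replicate 2). Besides Ulk1, Atp6v0d2 (-0.64), Atp13a2 (-0.53) and Wipi1 (-0.49) were called, the latter pair further from 0 on replicate 1 (-0.74 and -0.31, and -0.76 and -0.22). Both lists were written with these values in view, so their counts carry no independent weight.

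The floxed Furin gene and the Cre inserted at Lyz2 bring flanking chromosome with them. Of the 200 named genes nearest to Lyz2 on chromosome 10, 2 were called (Dusp6 and Phlda1, 1%, against 1.16% of all named genes), and of the 200 nearest to Furin on chromosome 7 none was. For Dusp6 and Phlda1 the part of linked sequence in the difference was not tested.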
